A study of Macaca mulatta with 29 samples.

Results

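The genes described here make cholesterol from acetyl-CoA, or sense, move and store it. They comprise the enzymes of the mevalonate, isoprenoid and sterol steps, the transcription factor SREBP2 (gene SREBF2) with the proteins that hold or release it, and genes of sterol transport and esterification. They were taken by symbol from the expression table: 31 symbols were listed, 2 of them alternative names (SC4MOL for MSMO1 and SC5D for SC5DL), and 29 had a row among the 16048 rows of the table. Of these, 27 passed the filter of a mean of at least 1 FPKM (fragments scaled by gene length and by the mapped fragments of the library) over all libraries, which 11080 rows passed. Mevalonate kinase (MVK), with group means of 0.505 to 0.738 FPKM, and the intestinal sterol uptake protein NPC1L1, with group means of 0.0186 to 0.0441 FPKM, did not pass and were not tested.

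RNA was sequenced from 29 libraries of ORMES-6, a rhesus macaque embryonic stem cell line, grown in serum-containing medium at 5% oxygen on mouse embryonic fibroblasts that no longer divide. All groups were kept for 4 weeks in their medium, the controls with the solvent methanol alone (5 libraries). The compounds, all classed as endocrine disruptors, were the herbicide atrazine at 30 uM, bisphenol A at 10 nM, the plasticizer Bis(2-ethylhexyl) phthalate (DEHP) at 5 uM, the surfactant perfluorooctanoic acid (PFOA) at 100 nM and the biocide tributyltin chloride at 25 nM, each dissolved in methanol. DEHP had 4 libraries and every other compound 5. Each treatment was 1 plate with 6 wells of the same line, so a compound and its plate cannot be told apart. The p-values below rest on the spread between wells or libraries within a plate, pooled over all 6 groups.

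Animal cells build cholesterol through mevalonate, isoprenoid diphosphates, squalene and lanosterol. When sterols in the endoplasmic reticulum are plentiful, INSIG proteins hold the escort protein SCAP and SREBP2 there; when sterols run low, SCAP carries SREBP2 to the Golgi, where the site-1 and site-2 proteases free the part that enters the nucleus. The freed part raises transcription of most of the synthesis enzymes, and of INSIG1, so the RNA of these genes is commonly read as a gauge of the sterol state of a cell, and serum lipoproteins are known to lower it.

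Stem cell markers were present in every group. POU5F1 was at 523 ± 103 FPKM, NANOG at 132 ± 8.37 and SOX2 at 124 ± 14.4 in vehicle (SD, n = 5), and all 11 pluripotency markers with a row were above 1 FPKM on average. Of 15 fibroblast markers, 8 were above 1 FPKM. Their summed level was 117 to 152 FPKM in vehicle, 129 to 159 with atrazine, 127 to 167 with bisphenol A, 118 to 137 with DEHP, 117 to 134 with PFOA and 125 to 158 with tributyltin. COL1A1 was at 47.1 ± 12.2 FPKM in vehicle, while DCN was listed at 0 in every library. Summed levels of early lineage markers also differed between groups. The 8 mesoderm markers, 4 of them above 1 FPKM on average, summed to 31.3 to 42.7 FPKM in vehicle, 44.8 to 49.1 with atrazine, 29.9 to 33.1 with tributyltin and 30.3 to 44.6 in the other groups, so that atrazine did not overlap vehicle. The 6 neuroectoderm markers with a row, 4 of them above 1 FPKM, summed to a median of 142 FPKM in vehicle and 116 to 128 with the compounds. The ranges were 126 to 167 and 105 to 155. Single genes weighed heavily in these sums: in vehicle NES was at 127 ± 16.4 FPKM among neuroectoderm markers and KDR at 23.4 ± 3.20 among mesoderm markers. Only 1 of 9 endoderm markers was above 1 FPKM. The part of these markers in the results below was not tested. In bulk RNA, fewer cells of a type and less RNA per cell cannot be told apart. Low values showed that the bisphenol A libraries were shallow, at 14.2% to 27.0% of the deepest library, against 40.9% to 100% for the others. The absolute depth is unknown.

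The enzymes spanned a wide range of levels, and INSIG1, INSIG2 and SCAP were lower than most of them (mean FPKM over 29 libraries, a scale per gene length). Among mevalonate enzymes, the thiolase ACAT2 was at 47.1 FPKM and HMG-CoA synthase (HMGCS1) at 37.8, but phosphomevalonate kinase (PMVK) at 5.38 and the decarboxylase MVD at 9.35. FDPS, which makes farnesyl diphosphate, and FDFT1, which commits it to squalene, were at 81.5 and 77.1 FPKM, above 91.5% and 90.9% of the genes past the filter. Lanosterol synthase (LSS) was the lowest sterol enzyme at 2.74 FPKM. SREBF2 itself was at 42.0 FPKM, INSIG1 at 5.89, INSIG2 at 5.88 and SCAP at 1.43, above only 4.43% of the genes past the filter. NPC2, a lysosomal sterol carrier, had the highest level of the 29 genes, 328 FPKM, while its partner NPC1 was at 8.81 FPKM.

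**Figure D1:**
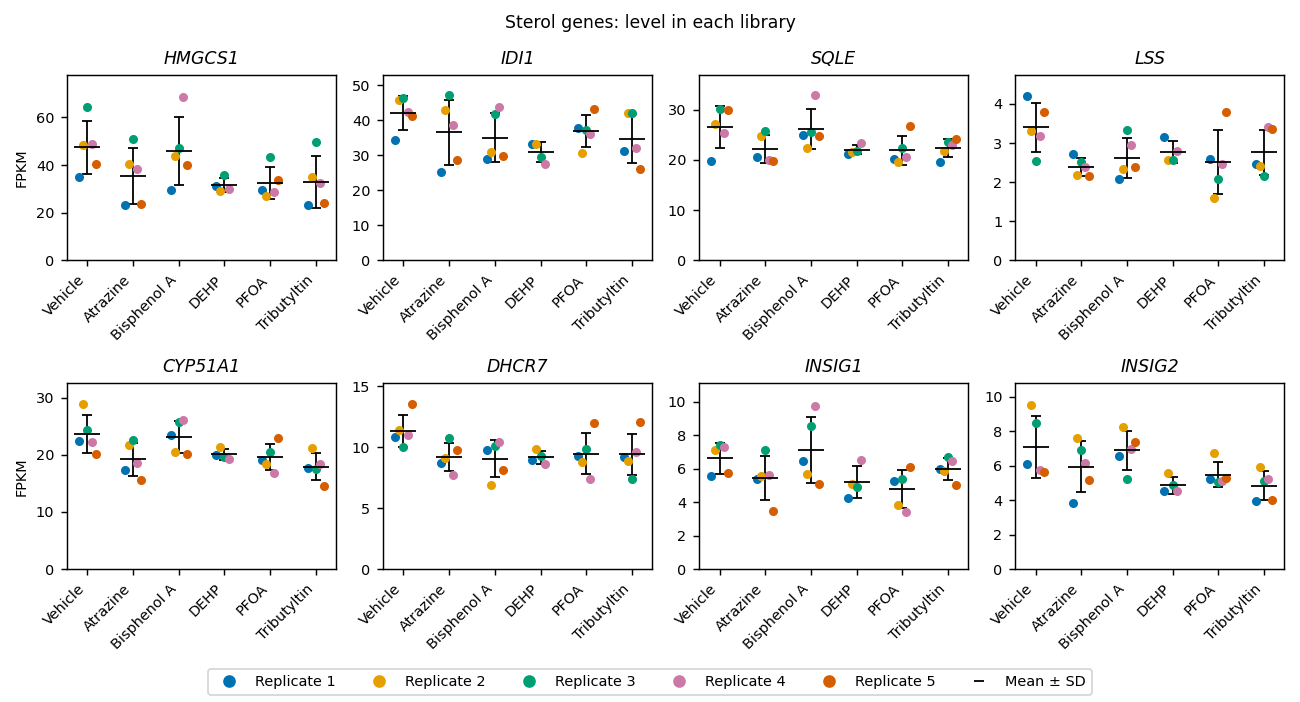
Level of 8 sterol genes in every library (vertical axes in FPKM, starting at 0), by group along the horizontal axis and coloured by replicate number, with the mean and SD of each group as a bar. Vehicle means are the highest or among the highest in each panel, but libraries of the groups mostly overlap: HMGCS1 runs from 34.9 to 64.2 FPKM in vehicle and from 23.1 to 49.7 with tributyltin.

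No gene of the set passed an adjusted p of 0.05 for any compound against vehicle, for the mean of the 5 compounds against vehicle, or in a joint test of the 6 groups. The tests were limma on log2(FPKM + 1) with Benjamini-Hochberg adjustment over all 11080 genes, and a fold change below is a difference on that log2 scale. Over all genes, the share called was 1.25% with tributyltin, 0.19% with atrazine, 0.162% with PFOA, 0.00903% with DEHP, 0% with bisphenol A, 0.253% for the mean of the compounds and 1.25% in the joint test. Shares this low leave fewer than 1 gene in 27, so 0 of 27 lies at the background. At an unadjusted p under 0.05 there were 6 of the 27 with tributyltin, 7 with atrazine, 8 with PFOA, 5 with DEHP and 2 with bisphenol A, against 10.5%, 6.88%, 5.79%, 7.93% and 5.17% of all genes. The mean of the compounds gave 9, against 7.20% of all genes, and the joint test 5, against 11.0%. In the joint test the smallest adjusted p-values were those of CYP51A1 (0.187), INSIG2 (0.231), INSIG1 (0.410) and HMGCS1 (0.435).

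The direction was mostly downward for 4 of the compounds. Fold changes from vehicle were below 0 for 22 of 27 genes with tributyltin (median -0.14), 20 with atrazine (-0.15), 21 with PFOA (-0.09) and 18 with DEHP (-0.09). Bisphenol A had 15 below 0 (median -0.02), and 11 with a median of 0.04 after quantile normalization. Over all genes the medians lay between -0.02 and 0.00, with 51.4% to 56.2% below 0. The 5 comparisons use the same 5 vehicle libraries, so their likeness is not independent.

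**Figure D2:**
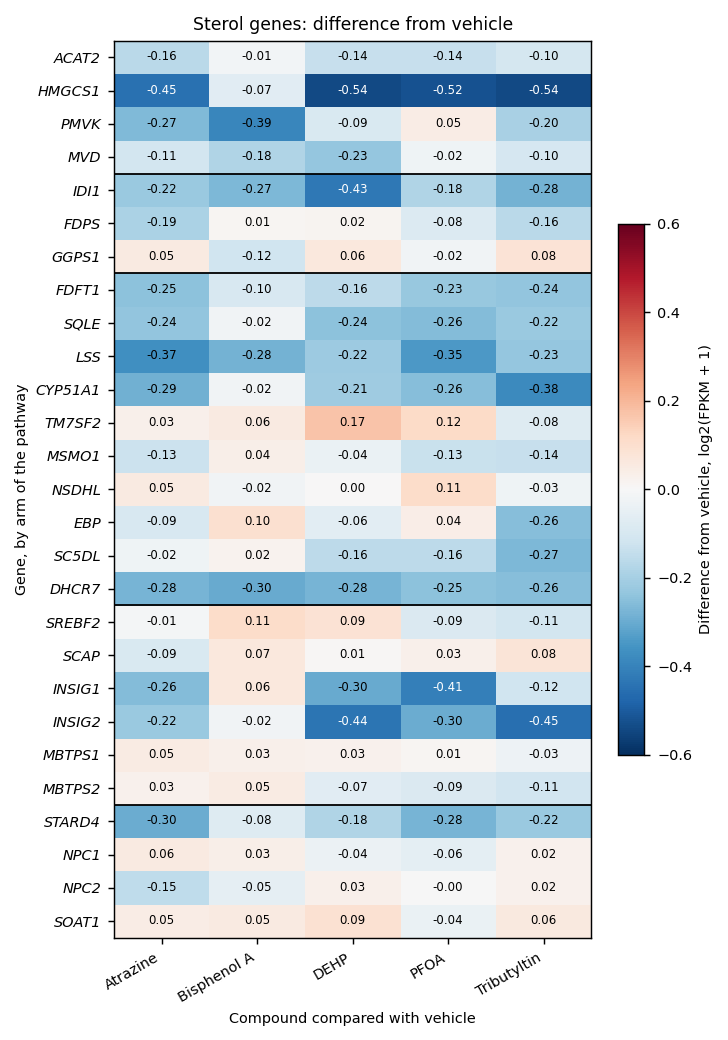
Difference of each compound from vehicle in log2(FPKM + 1) for the 27 tested genes, ordered by role from mevalonate enzymes at the top to transport and storage at the bottom, with lines between roles. Blue is lower and red higher than vehicle; HMGCS1 ranges from -0.54 with tributyltin and DEHP to -0.07 with bisphenol A.

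HMGCS1, which makes HMG-CoA at the entry to the mevalonate pathway, had the widest differences of the set. Its vehicle libraries were at 34.9, 48.6, 64.2, 48.8 and 40.5 FPKM for replicate numbers 1 to 5, and its tributyltin libraries at 23.1, 35.1, 49.7, 32.7 and 23.9. The groups overlapped, yet each tributyltin library lay below the vehicle library of the same number. With DEHP the 4 libraries were at 31.3, 29.3, 35.9 and 30.1 FPKM. PFOA gave 29.6, 27.1, 43.4, 28.7 and 33.6 FPKM, and atrazine 23.2, 40.3, 51.1, 38.3 and 23.8. Bisphenol A gave 29.6, 43.7, 47.0, 68.6 and 40.1 FPKM, with the highest single library and a range that overlapped all the other groups. The group means were 47.4 ± 11.1 in vehicle, 35.3 ± 11.9 with atrazine, 31.7 ± 2.96 with DEHP (n = 4), 32.5 ± 6.57 with PFOA, 32.9 ± 10.8 with tributyltin and 45.8 ± 14.3 with bisphenol A (SD, n = 5). The difference from vehicle was -0.54 with tributyltin (SE 0.22, limma adjusted p = 0.326), -0.54 with DEHP (SE 0.23, adjusted p = 0.566) and -0.52 with PFOA (SE 0.22, adjusted p = 0.701), none past the threshold. The other mevalonate enzymes had differences between -0.39 (PMVK with bisphenol A) and 0.05 (PMVK with PFOA). All 4 tested mevalonate enzymes were below vehicle with each compound except PFOA, where 3 were, and 0 passed.

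Among isoprenoid enzymes, the isomerase IDI1 had lower means with all 5 compounds, while GGPS1, which makes geranylgeranyl diphosphate for protein prenylation, had differences of both signs. IDI1 was at 34.3, 45.7, 46.4, 42.4 and 41.2 FPKM in vehicle and at 33.2, 33.3, 29.4 and 27.6 with DEHP, so that every DEHP library lay below every vehicle library. The difference was -0.43 (SE 0.16, limma adjusted p = 0.492). With bisphenol A the IDI1 difference was -0.27 (SE 0.15, adjusted p = 0.963) and that of GGPS1 -0.12 (SE 0.06, adjusted p = 0.963). GGPS1 varied little, with group means of 20.3 ± 1.69 FPKM (bisphenol A) to 23.4 ± 0.789 (tributyltin) and 22.1 ± 1.08 in vehicle. FDPS, whose gene body overlaps an unnamed gene in the reference annotation, had differences of -0.19 to 0.02.

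The sterol enzymes from squalene onward gave the most one-sided pattern with tributyltin, where 10 of 10 had a lower mean than vehicle (median -0.23, range -0.38 to -0.03) and 0 passed. CYP51A1, the lanosterol demethylase, came closest. It was at 22.4, 28.8, 24.3, 22.3 and 20.2 FPKM in vehicle and at 17.6, 21.2, 17.6, 18.5 and 14.6 with tributyltin. Only the highest tributyltin library reached into the vehicle range. The means were 23.6 ± 3.28 and 17.9 ± 2.35 FPKM (SD, n = 5), a difference of -0.38 (SE 0.11, 95% interval -0.60 to -0.16, limma adjusted p = 0.0743). Without vehicle replicate 5 its adjusted p was 0.0455, and without tributyltin replicate 2 it was 0.0447, which made 1 called gene in place of 0. Its mean was 23.2 ± 2.80 FPKM with bisphenol A, near vehicle, and 19.2 ± 2.93 with atrazine, 19.6 ± 2.28 with PFOA and 20.1 ± 0.952 with DEHP. With atrazine the difference from vehicle was -0.29 (SE 0.11, adjusted p = 0.547).

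LSS, which closes the ring to form lanosterol, and DHCR7, which carries out a last reduction to cholesterol, were below vehicle with all 5 compounds. LSS was at 4.19, 3.32, 2.55, 3.18 and 3.79 FPKM in vehicle, and at 2.72, 2.18, 2.51, 2.40 and 2.16 with atrazine. The lowest vehicle library fell inside the atrazine range. The LSS difference was -0.37 with atrazine (SE 0.13, limma adjusted p = 0.485), -0.35 with PFOA (SE 0.13, adjusted p = 0.647) and -0.28 with bisphenol A (SE 0.13, adjusted p = 0.929). DHCR7 was at 10.8, 11.4, 10.0, 11.0 and 13.5 FPKM in vehicle, and at 8.97, 9.87, 9.26 and 8.59 with DEHP, with no overlap. Its differences were close to one another across compounds, from -0.25 with PFOA to -0.30 with bisphenol A (SE 0.12 for each compound; limma adjusted p = 0.842 for bisphenol A, 0.639 for atrazine with a difference of -0.28, 0.594 for DEHP with -0.28 and 0.436 for tributyltin with -0.26). For the mean of the 5 compounds, DHCR7 had the smallest p of the set, with a difference of -0.27 (SE 0.09, adjusted p = 0.394), followed by LSS at -0.29 (SE 0.10, adjusted p = 0.419), CYP51A1 at -0.23 (SE 0.08, adjusted p = 0.419) and INSIG2 at -0.29 (SE 0.11, adjusted p = 0.518).

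Squalene epoxidase (SQLE) had means of 26.5 ± 4.23 FPKM in vehicle, 26.1 ± 4.00 with bisphenol A and 21.9 to 22.4 in the other 4 groups, and its difference was -0.26 with PFOA (SE 0.11, limma adjusted p = 0.701). FDFT1 ran from 86.0 ± 9.84 FPKM in vehicle to 72.3 ± 9.17 with atrazine. TM7SF2 and NSDHL, which work between lanosterol and the later sterols, had differences of both signs, between -0.08 and 0.17. The gene bodies of TM7SF2 and VPS51 overlap in the reference annotation, as do those of ACAT2 and TCP1. Whether they share reads was not looked at, and the use of strand in counting is not stated, so their values are uncertain.

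Among the sensing genes, the INSIG pair had lower means than vehicle with each compound other than bisphenol A, and the SREBP2 gene itself hardly differed. INSIG2 was at 6.07, 9.51, 8.50, 5.74 and 5.61 FPKM in vehicle, at 3.97, 5.94, 5.08, 5.21 and 4.01 with tributyltin, and at 4.50, 5.55, 4.86 and 4.55 with DEHP. All DEHP libraries lay below all vehicle libraries, and 1 tributyltin library lay within the vehicle range. The difference was -0.45 with tributyltin (SE 0.14, limma adjusted p = 0.147) and -0.44 with DEHP (SE 0.15, adjusted p = 0.467). INSIG1, a known SREBP2 target, was at 5.55, 7.14, 7.44, 7.28 and 5.73 FPKM in vehicle and at 5.26, 3.86, 5.39, 3.39 and 6.12 with PFOA, a difference of -0.41 (SE 0.16, adjusted p = 0.647). SREBF2 means were 42.0 ± 3.49 FPKM in vehicle and 38.8 ± 3.35 to 45.6 ± 6.00 in the compound groups, with differences of -0.11 to 0.11. SCAP, MBTPS1 and MBTPS2 (the site-1 and site-2 proteases) differed by -0.11 to 0.08. MBTPS2 overlaps YY2 in the annotation.

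Of the transport genes, STARD4, a cytosolic sterol carrier and a known SREBP2 target, was lower on average with all compounds, from 11.0 ± 2.17 FPKM in vehicle to 8.74 ± 1.69 with atrazine (difference -0.30, SE 0.13, limma adjusted p = 0.670). NPC1, NPC2 and SOAT1, which esterifies cholesterol for storage, had differences between -0.15 and 0.09. NPC1 overlaps RMC1 in the annotation.

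A strict order of the libraries was rare. Every library below every vehicle library was seen with DEHP for 3 of 27 genes (11.1%: IDI1, DHCR7 and INSIG2), against 1.64% of all genes, where 4 libraries face 5. With the other compounds it was seen for 0 of 27, against 0.749% of all genes with atrazine, 0.325% with bisphenol A, 1% with PFOA and 1.71% with tributyltin. DEHP also had the smallest spread, with a median SD of 0.11 on the log2 scale over the 27 genes, against 0.17 to 0.22 in the other groups. Over all genes its median SD was the smallest as well, at 0.130 against 0.138 to 0.197.

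Libraries of vehicle and tributyltin with the same replicate number deviated together from their group means (r = 0.175 to 0.654 in 5 pairs). In 4 of the 5 the vehicle library of the same number was the closest match. The 4 DEHP pairs were also above 0 (r = 0.000454 to 0.566), while atrazine, PFOA and bisphenol A each had pairs below 0. The same-numbered vehicle library was still the closest match in 3 of 4 DEHP pairs. It was so in 3 of 5 pairs each with atrazine, PFOA and bisphenol A. With the number as a block, limma called 3 of 27 genes with tributyltin, all lower, against 3.79% of all genes in either direction and 2.73% lower: INSIG2 (adjusted p = 0.0147), CYP51A1 (adjusted p = 0.0218) and HMGCS1 (adjusted p = 0.0329). The sizes of the differences were the same as without the block. In paired terms, 7 of 27 genes (25.9%) were lower in 5 of 5 pairs, against 11.5% of all genes: HMGCS1, IDI1, FDFT1, SQLE, CYP51A1, DHCR7 and INSIG2. HMGCS1 was at 59.0% to 77.4% of the vehicle library of its number, CYP51A1 at 72.2% to 82.8%, INSIG2 at 59.8% to 90.7% and DHCR7 at 73.4% to 89.0%. In contrast GGPS1 was at 101% to 115%, lower in 0 of 5 pairs.

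**Figure D3:**
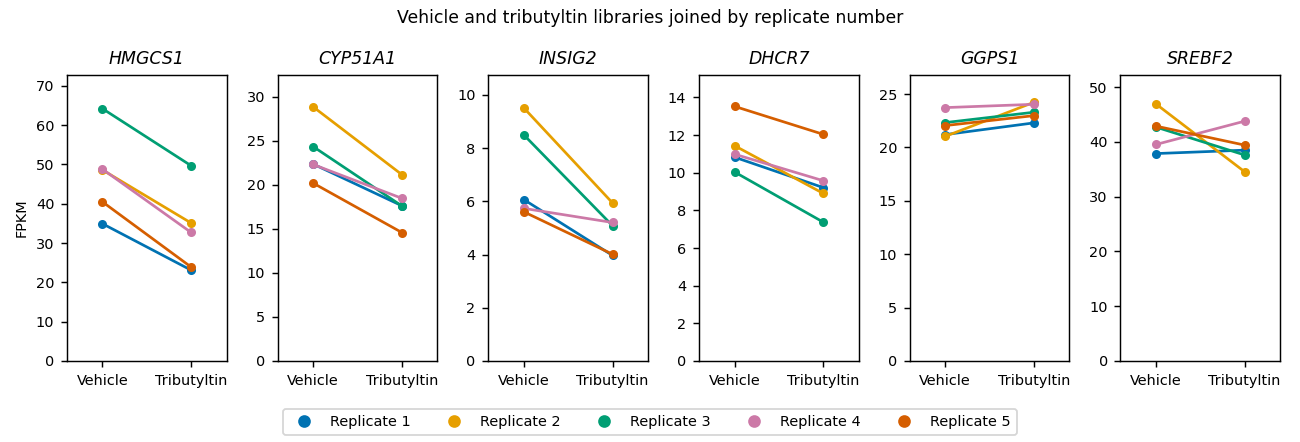
Vehicle and tributyltin libraries of the same replicate number joined by lines for 6 genes (vertical axes in FPKM, starting at 0). All 5 lines fall for HMGCS1, CYP51A1, INSIG2 and DHCR7, all 5 rise for GGPS1, and for SREBF2 they run both ways.

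Tributyltin was also set against the mean of the other 4 compounds, a comparison that does not use vehicle. There 1.94% of all genes and 0 of 27 sterol genes passed, with 1 of the 27 at an unadjusted p under 0.05, where 12.8% of all genes were. The smallest p was that of CYP51A1, with a difference of -0.19 (SE 0.08, limma adjusted p = 0.340), then the sterol isomerase EBP at -0.25 (SE 0.13, adjusted p = 0.402), INSIG2 at -0.21 (SE 0.11, adjusted p = 0.453) and SREBF2 at -0.14 (SE 0.08, adjusted p = 0.494). The sterol enzymes were thus not shown to be lower with tributyltin than with the other compounds.

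Bisphenol A against the mean of the other 4 compounds gave the opposite sign, with 20 of 27 differences above 0 and a median of 0.11. None of the 27 passed with limma, against 1.14% of all genes, and 6 had an unadjusted p under 0.05, where 12.9% of all genes did. Over all genes 52.8% of these differences were below 0, with a median of -0.01. HMGCS1 was higher with bisphenol A by 0.44 (SE 0.17, limma adjusted p = 0.245), CYP51A1 by 0.26 (SE 0.08, adjusted p = 0.137), INSIG2 by 0.33 (SE 0.11, adjusted p = 0.169) and INSIG1 by 0.34 (SE 0.12, adjusted p = 0.213). GGPS1 was lower by 0.16, a difference of -0.16 (SE 0.05, adjusted p = 0.124), the smallest p of the 27. INSIG1 reached 9.78 FPKM in bisphenol A library 4 and 8.54 in library 3, above every library of the other groups. In a fit blocked on the replicate number, 4 of 27 passed, against 4.9% of all genes: CYP51A1 (limma adjusted p = 0.0372), HMGCS1 (0.0205) and INSIG2 (0.0205) higher and GGPS1 (0.0361) lower. In the joint test of the 6 groups the block called 3 of 27, again against 4.9%. The number does not pair the bisphenol A libraries with the others in every case, so that these calls are an alternative only. The shallow depth of the bisphenol A libraries moves with this contrast, and its part in the result was not tested.

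The replicate number, a label whose meaning is not stated, also went with differences in part of the set. In a test of the number beside the group, added after seeing the data, 8 of 27 genes (29.6%) passed, which is fewer than the 45.3% of all genes. These were HMGCS1 (limma adjusted p = 0.000663), SC5DL (0.00234), SCAP (0.00337), INSIG2 (0.00457), MBTPS1 (0.00646), ACAT2 (0.0118), PMVK (0.0138) and MVD (0.0203). The p for the number was smaller than the p for the group in 19 of 27 genes. These p-values are not alike, since the group was tested in a fit without the number. An unadjusted p under 0.05 for the number was seen in 37.0% of the 27 genes and in 53.8% of all genes. For the group it was seen in 18.5% and 11.0%. HMGCS1 deviated from its group mean by -0.34 in number 1 and -0.23 in number 5, and by 0.40 in number 3. Numbers 1 and 5 held the lowest pair of values of HMGCS1, IDI1 and SC5DL, a sterol desaturase, in 4 of the 5 groups with 5 libraries. They held the highest pair of SCAP in 3 of these groups. These genes were picked after seeing the values, and how often all genes show such an order was not counted. IDI1 did not pass for the number (limma adjusted p = 0.0990), and with PFOA numbers 1 and 5 held its highest pair. PMVK and MVD were at their highest in number 5, by 0.50 and 0.30, and INSIG2 in number 2, by 0.28.

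**Figure D4:**
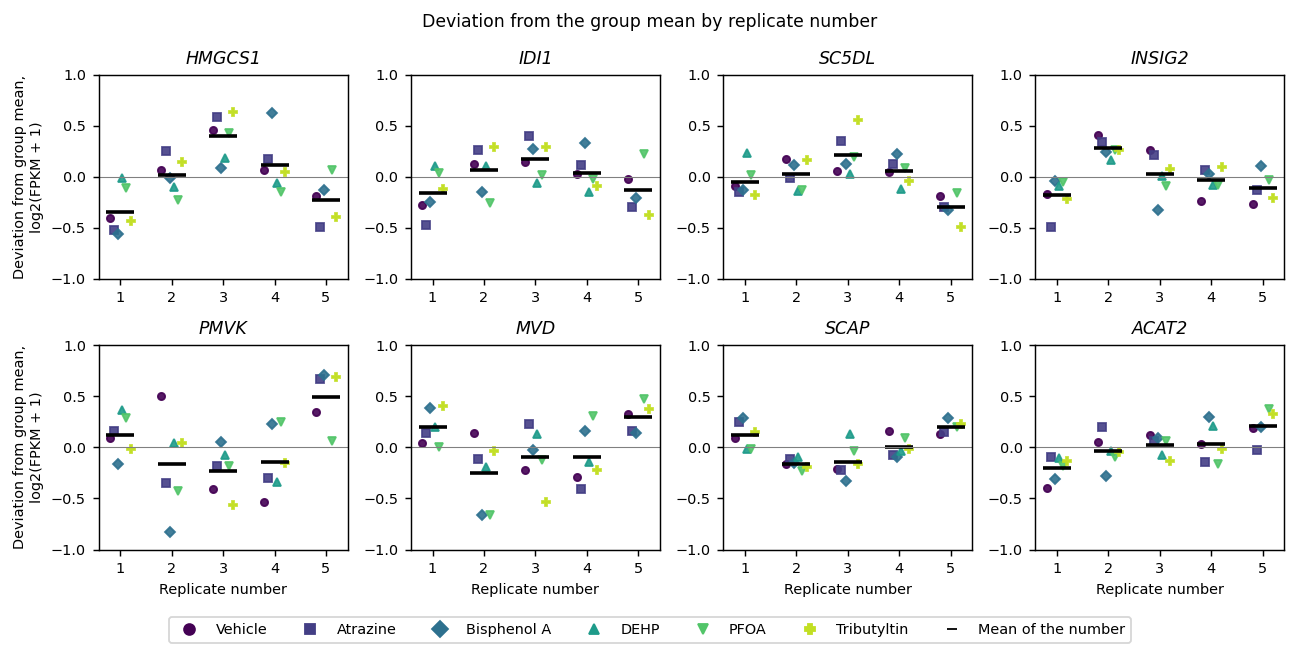
Deviation from the group mean in log2(FPKM + 1) for 8 genes, by replicate number along the horizontal axis, with 1 symbol per group and a bar for the mean of each number. HMGCS1 lies lowest in numbers 1 and 5 and highest in number 3, while PMVK, MVD, SCAP and ACAT2 are highest in number 5.

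How the genes varied together within groups was read from the correlation of their deviations from the group mean over 29 libraries. Of 351 pairs, 63 were positive and 7 negative at an adjusted p under 0.05 (permutation within groups, two-sided, 100000 draws, Benjamini-Hochberg over the 351 pairs; the smallest p the draws can give is 1e-05). Such correlations were common over the whole table as well: r was at or above 0.473, the lowest of the 63, in 23.6% of the 351 pairs and in 9.45% of the 61377660 pairs of all 11080 genes, and at or below -0.540, the highest of the 7, in 2.28% and 5.22%. All genes of a library share its depth, scaling and replicate number. HMGCS1 and IDI1 were the closest pair, with r = 0.826 and rho = 0.833 (permutation p = 1e-05 and 2e-05, adjusted p = 0.000878 and 0.00176), r = 0.797 without the 2 libraries farthest from the median and 0.775 within replicate numbers. CYP51A1 followed INSIG1 with r = 0.725 and rho = 0.654 (permutation p = 2e-05 and 0.00065, adjusted p = 0.0014 and 0.0109), which was 0.743 without the 2 farthest libraries, 0.784 within numbers and 0.665 without bisphenol A. ACAT2 and SQLE had r = 0.809 and rho = 0.773 (permutation p = 1e-05 for both, adjusted p = 0.000878 and 0.00117), with r = 0.725 without the 2 farthest libraries and 0.793 within numbers. HMGCS1, IDI1, CYP51A1 and INSIG1 thus tracked one another from library to library.

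Not all members joined in. INSIG1 and INSIG2 showed little relation, with r = 0.080 and rho = 0.051 (permutation p = 0.716 and 0.802, adjusted p = 0.810 and 0.877; r = 0.029 without the 2 farthest libraries). For HMGCS1 with LSS, r was -0.106 and rho -0.087 (permutation p = 0.600 and 0.682, adjusted p = 0.721 and 0.786; r = -0.083 without the 2 farthest libraries). Within replicate numbers this r changed sign to 0.21. There LSS also had r = 0.37 with IDI1, 0.51 with CYP51A1 and 0.47 with INSIG1, against 0.056, 0.097 and 0.23 before. The values within numbers were not tested. SREBF2 followed FDFT1, with r = 0.709 and rho = 0.616 (permutation p = 7e-05 and 0.00168, adjusted p = 0.00223 and 0.0184; 0.677 without the 2 farthest libraries and 0.724 within numbers). With HMGCS1 it had r = 0.292 and rho = 0.235 (permutation p = 0.209 and 0.301, adjusted p = 0.367 and 0.491; 0.254 without the 2 farthest libraries). SCAP ran against SC5DL, with r = -0.650 and rho = -0.666 (permutation p = 0.00058 and 0.00093, adjusted p = 0.00814 and 0.0131; -0.630 without the 2 farthest libraries), which weakened to -0.358 within replicate numbers.

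**Figure D5:**
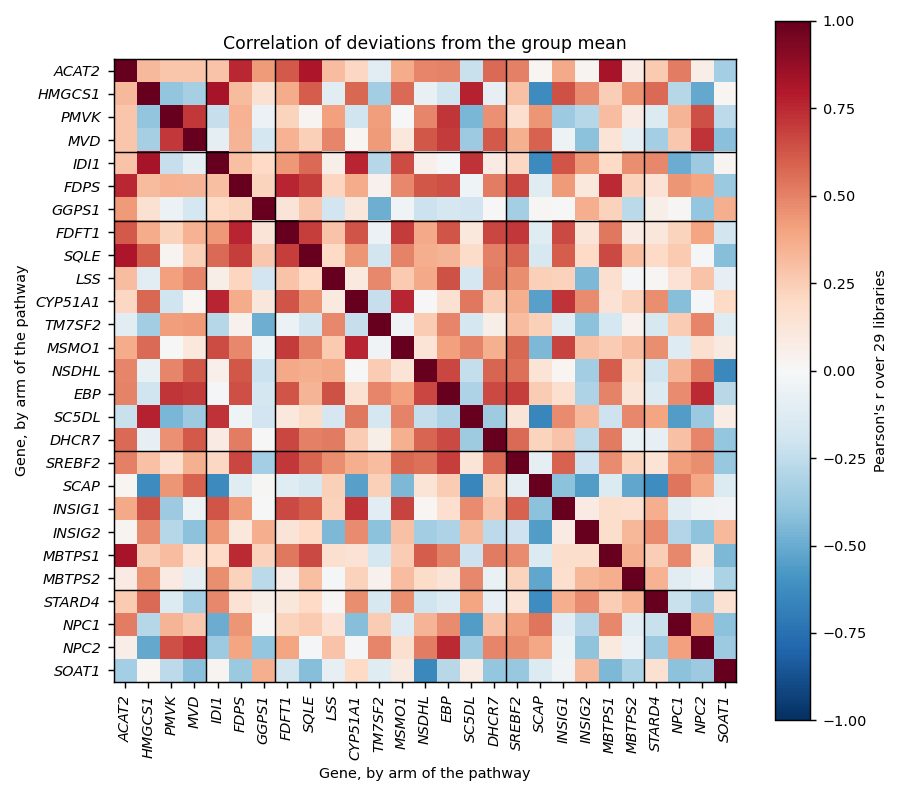
Pearson's r between deviations from the group mean for the 27 tested genes over 29 libraries, on a scale from -1 to 1, with both axes ordered by role and lines between roles. HMGCS1, IDI1, CYP51A1 and INSIG1 share red cells, and SCAP shows blue cells with HMGCS1, IDI1 and SC5DL.

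Other genes of sterol biology, which are not members of the set, were read from 4 further lists. Of 12 tested genes that answer to SREBP1 or to sterols, 4 were below vehicle with tributyltin (median 0.01), 8 with atrazine and 9 with each other compound. Of these 12, 0 passed with limma and 0 to 4 had an unadjusted p under 0.05. Over all genes, 0% to 1.25% passed for a compound against vehicle, and 5.17% to 10.5% had an unadjusted p under 0.05. Among 15 genes of the isoprenoid branch 0 passed for any compound against vehicle, with 0 to 3 at an unadjusted p under 0.05, and among 18 genes of sterol traffic and degradation 0 passed, with 0 to 2. Of 6 tested genes of sterol efflux and oxysterol sensing, ABCA1, which exports cholesterol, rose with tributyltin from 14.4 ± 2.38 to 53.5 ± 3.60 FPKM (SD, n = 5), a difference of 1.84 (SE 0.16, limma adjusted p = 5.86e-09), and the other 5 did not pass. Against the mean of the other 4 compounds, tributyltin was higher for ABCA1 by 1.83 (adjusted p = 9.12e-11), for DOLK, a dolichol kinase, by 0.38 (adjusted p = 0.0125), for SREBF1, the gene of SREBP1, by 0.34 (adjusted p = 0.0273), and for ELOVL6, a fatty acid elongase, by 0.23 (adjusted p = 0.0240). These were 1 of 6, 1 of 15 and 2 of 12 tested genes of their lists, with 0 of 18 in the traffic list, against 1.94% of all genes. SREBF1 was at 4.55 ± 0.484 FPKM with tributyltin and 3.64 ± 0.479 in vehicle, a difference of 0.26 that did not pass (limma adjusted p = 0.344). With bisphenol A, ABCA1 was below the mean of the other 4 compounds, with a difference of -0.54 (limma adjusted p = 0.0259). That mean includes tributyltin at 53.5 FPKM. ABCA1 was at 13.9 ± 3.60 FPKM with bisphenol A, near the 14.4 ± 2.38 of vehicle. It was at 17.0 with atrazine, 11.6 with DEHP and 16.1 with PFOA. Against vehicle, 0 of the 6 passed with bisphenol A.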

How the data were processed

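RNA of 29 libraries was compared in 6 groups named from the library titles. The deposited table holds FPKM per gene and library, a unit that the authors' tools scale to gene length and to the size of each library, as named in the file headers. The submitters' processing notes list TopHat2 (2.1.1), Cuffdiff (2.2.1) and SAMtools, and they name a mouse build, GRCm38.p5, with no role. The rhesus build, the use of strand and the handling of mouse feeder reads are not given in the sources used here. Symbols and identifiers are those of the human homologs. The RefSeq table of assembly T2T-MMU8v2.0 was used only for overlapping genes.

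Values were transformed to log2(FPKM + 1), genes averaging 1 FPKM or more were kept, and all 6 groups were fitted at once with limma 3.58.1 in R 4.3.3 (moderated tests with a mean-variance trend, two-sided, Benjamini-Hochberg over all genes, threshold 0.05). Fold changes of low genes are understated on this scale. The fit was tested on simulated data. Relative depth came from low values, which fall on steps of 1 read: 97.7% of 22432 values in 1637 genes were whole within 0.1. Libraries of a group correlated at 0.970 to 0.995, and 0 columns were identical.

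The members and the lists were chosen with earlier results of these data known. In each comparison the 4 members with the smallest p, and any that passed, were named with full statistics, and of the other lists the genes that passed. Others are named for their values after these were seen. Same-numbered tributyltin and vehicle libraries had correlated deviations in 5 of 5 pairs (0.175 to 0.654), so the blocked fit is given beside that comparison. The pairing comes from these data and not from the labels. The DEHP pairs were also above 0, from 0.000454, and there the block called 0 of 27 genes. The alternatives were another pseudocount, other filters, scalings, spreads and weights, the block, fewer groups and leaving out each library. Sequences were not analysed here.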

Additional observations from a re-analysis of the deposited data

Results flagged for a closer look

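In 162 combinations of a gene and a group of 4 or 5 libraries, 9 had a library far from the others by Dixon's criterion, where chance alone flags about 1 in 20 groups. With tributyltin, replicate 5 had the highest ACAT2, 58.0 FPKM against 41.9 to 45.7 in the others, and the lowest SOAT1, 7.69 against 10.4 to 11.3. With PFOA, replicate 5 had EBP at 26.7 FPKM against 15.5 to 18.3, while replicate 2 had INSIG2 at 6.73 against 5.05 to 5.30 and NPC2 at 302.9 against 337 to 339. With atrazine, replicate 3 had FDFT1 at 88.4 FPKM against 66.7 to 71.3. With bisphenol A, replicate 5 had NPC1 at 10.3 FPKM against 8.42 to 8.88, and replicate 1 had TM7SF2 at 7.19 against 8.68 to 9.11. In vehicle, replicate 1 had NPC1 at 7.52 FPKM against 8.80 to 9.24.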

How the results depend on the processing

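Of 383 recomputed counts of called sterol genes over 10 results, 376 were equal or close to the reported count. For the replicate number, a count as low as 7 was taken as close to the reported 8. Of 1236 recomputed differences of named genes, 0 reversed and 11 gained a call, where none had a call to lose. Leaving out a replicate gave 0 to 1 called gene for tributyltin against vehicle. With the replicate number as a block, 3 genes were called for tributyltin against vehicle (3 also when only those libraries were fitted, an alternative chosen after seeing the data), 3 in the joint test of the groups (CYP51A1, HMGCS1 and INSIG2) and 4 for bisphenol A against the other compounds (CYP51A1, HMGCS1 and INSIG2 higher, GGPS1 lower). The block changed no other call. The labels do not pair libraries by number for any compound. Of the other compounds, only DEHP had deviations correlated above 0 with vehicle in every same-numbered pair (lowest r = 0.000454). Library weights gave 18 genes for the replicate number, against 8; the cause was not tested.

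Over all genes, the calls ranged from 44 to 420 for tributyltin (138 reported), 6 to 84 for atrazine (21), 7 to 63 for PFOA (18), 0 to 74 for DEHP (1) and 0 to 3 for bisphenol A (0). They ranged from 13 to 104 for the mean of the compounds (28), 76 to 529 for tributyltin against the other compounds (215), 30 to 543 for bisphenol A against them (126) and 88 to 543 in the joint test (139). LSS was not tested at a filter of 5 FPKM. The shallow bisphenol A libraries limit what can be seen for that compound.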
